A study of Mus musculus with 10 samples.

Results

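The 10 genes examined are those of cholinergic motoneurons and of their peptides followed through 10 single neurons of the preBötzinger Complex (preBötC), the brainstem site that generates the inspiratory rhythm. They are Chat, Slc18a3, Slc5a7, Isl1, Prph, Tbx20, Ret, Calca, Calcb and Gal, which make 10 of the 55367 genes listed in the files. The genes were chosen by their values in these same libraries, because several of them peak in sample 9, so the height of sample 9 is a description and carries no test.

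Each library holds the RNA aspirated through a patch pipette from 1 inspiratory neuron in a slice of neonatal medulla. By the onset of their inspiratory drive and whether they had A-type and h-type currents, samples 4, 5, 6 and 7 were classed as Type-1 (n = 4), sample 1 as Type-2 (n = 1) and samples 2, 3, 8, 9 and 10 as Unknown (n = 5). Samples 1, 5, 6 and 7 came from Dbx1;Ai148 pups, in which Cre driven by the Dbx1 promoter switches on the calcium indicator GCaMP6f in cells of the Dbx1 lineage. The other 6 came from CD-1 wild-type pups, where no reporter marks a lineage and a neuron was taken because it fired with the hypoglossal motor output. The pups were at postnatal day 0 (samples 1, 3, 5 and 8), 1 (sample 10), 2 (samples 2 and 9) or 3 (samples 4, 6 and 7). Sample 9 was thus an Unknown neuron of a CD-1 pup at day 2, a description that only sample 2 shares. The captions of the study give this neuron to the Dbx1;Ai148 line instead, and the sample labels were followed here. The labels name no animal, sample 9 is a single library, and differences between types were not tested.

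A cholinergic neuron makes acetylcholine with the enzyme choline acetyltransferase, encoded by Chat, loads it into vesicles through the transporter VAChT, encoded by Slc18a3, and recovers choline through the high-affinity transporter encoded by Slc5a7. Motoneurons of the brainstem and spinal cord use this transmitter, carry large amounts of neurofilament, and often hold calcitonin gene-related peptide (CGRP), whose 2 forms come from Calca and Calcb. The preBötC lies ventral to the motoneurons of the nucleus ambiguus and is known chiefly for glutamatergic and inhibitory interneurons.

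Promoter sequences were read for 8 of the 10 genes (RefSeq, GRCm38.p6), and Calcb and Ret had no entry. Those of Chat (chr14:32465910-32466159), Slc18a3 (chr14:32464851-32465100), Isl1 (chr13:116309689-116309938) and Calca (chr7:114636358-114636607), all on the minus strand, are shown. The first pair share a locus but differ widely in level, Isl1 encodes a transcription factor of the set and Calca was the most abundant gene of the set. Each runs 5′ to 3′ over the 250 bases before the RefSeq start, and capitals mark TGACG or its reverse complement CGTCA, the core of the cyclic AMP response element.
Chat: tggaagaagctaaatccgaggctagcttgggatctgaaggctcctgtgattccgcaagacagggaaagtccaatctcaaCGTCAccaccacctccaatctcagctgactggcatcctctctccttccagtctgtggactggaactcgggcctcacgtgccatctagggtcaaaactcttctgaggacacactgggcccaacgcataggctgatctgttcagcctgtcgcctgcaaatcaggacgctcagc
Slc18a3: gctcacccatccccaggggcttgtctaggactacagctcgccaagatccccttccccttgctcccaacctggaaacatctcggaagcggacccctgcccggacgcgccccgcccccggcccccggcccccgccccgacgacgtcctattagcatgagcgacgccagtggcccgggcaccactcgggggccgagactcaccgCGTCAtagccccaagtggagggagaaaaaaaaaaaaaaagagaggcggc
Isl1: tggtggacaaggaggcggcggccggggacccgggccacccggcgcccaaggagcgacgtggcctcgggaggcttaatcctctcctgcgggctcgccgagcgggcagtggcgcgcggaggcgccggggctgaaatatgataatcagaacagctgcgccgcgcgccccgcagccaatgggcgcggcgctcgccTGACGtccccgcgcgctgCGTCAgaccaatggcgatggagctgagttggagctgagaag
Calca: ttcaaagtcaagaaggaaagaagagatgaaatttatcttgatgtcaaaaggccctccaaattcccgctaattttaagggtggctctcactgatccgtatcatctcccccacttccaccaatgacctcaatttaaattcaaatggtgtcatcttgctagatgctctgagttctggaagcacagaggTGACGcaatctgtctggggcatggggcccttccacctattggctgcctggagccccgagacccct
This motif was chosen after the promoters had been read. It begins at position -171 in Chat, -49 in Slc18a3, -59 and -41 in Isl1, -66 in Tbx20 and -65 in Calca, counted back from the start, and is not in the windows of Slc5a7, Prph and Gal. That is 5 of 8 promoters, and 17.8% of the 32851 promoters of the same length held the motif on either strand; where the forms overlap in a palindrome, both count. A match is a run of letters and does not show that a factor binds there.

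All 10 genes had their highest FPKM (a gene's fragments divided by its length in kilobases and by the library total in units of 1e+06 fragments) in sample 9. Over the 17959 genes with at least 10 fragments in some neuron, 7.38% were highest in sample 9. All 10 also had over 50% of their FPKM, summed over the 10 neurons, in sample 9, against 3.36% of those genes. Because the genes were picked for this, nothing is read from either contrast. The low-yield libraries 1 to 4, which held the least cDNA, were also left out, and all 10 genes again had their highest value and over 50% of their FPKM in sample 9. The 10 genes together took 144801 fragments in sample 9, or 0.656% of its library, which is 6560 per 1e+06 fragments. The next library was sample 10 with 49.5 per 1e+06, followed by sample 2 with 14.4 and sample 3 with 13.5.

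**Figure D1:**
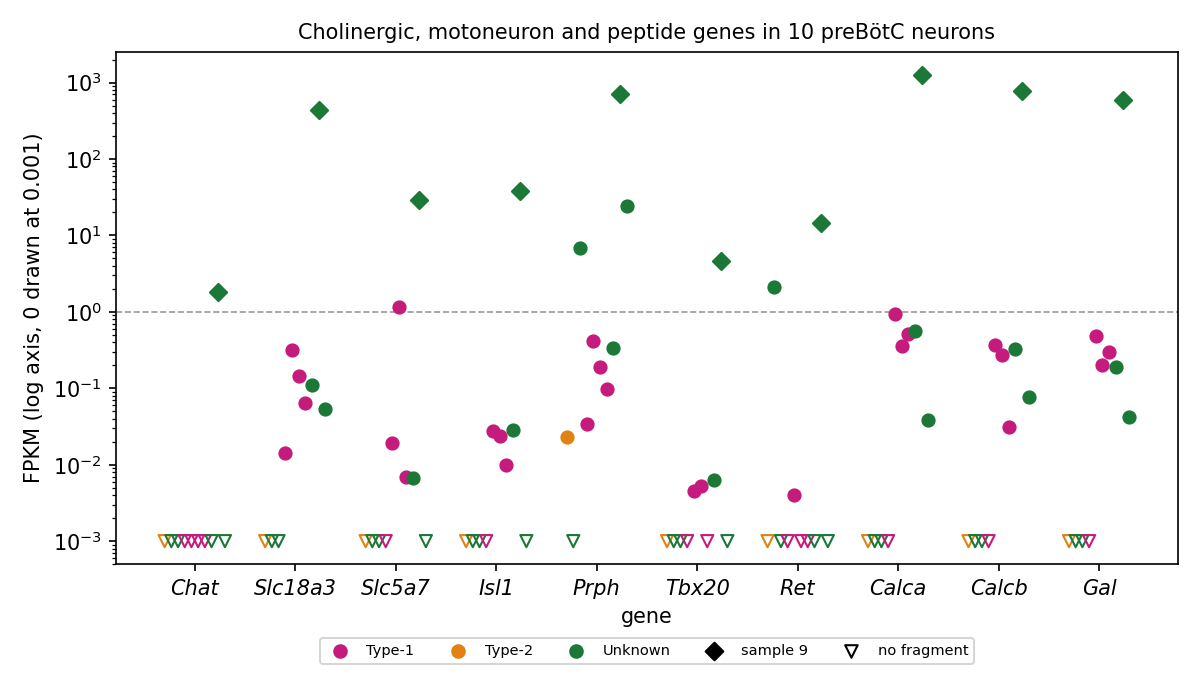
FPKM (log axis) of the 10 genes in each of the 10 neurons, 1 point per neuron, with colour giving the neuron type, a diamond for sample 9 and open triangles at 0.001 for neurons with no fragment. Sample 9 is the highest point for every gene, from 1.8 FPKM for Chat to 1264 FPKM for Calca, and 4 points outside it reach 1 FPKM.

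The acetylcholine genes stood at very unequal levels in sample 9. Chat had 187 fragments there (1.8 FPKM, rank 6248 in the library) and 0 fragments in each of the other 9 neurons. Against the limit of 3 fragments that a count of 0 allows, with the highest such limit over the 9 libraries at 0.0298 FPKM, Chat was at least 60.4-fold higher in sample 9. Sample 9 was therefore the only neuron of the 10 in which Chat was detected at this depth.

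Slc18a3 had 23647 fragments in sample 9, or 444 FPKM (rank 114). Elsewhere it was at 0 in samples 1, 2 and 3, at 0.0141 FPKM in sample 4, 0.317 in sample 5, 0.145 in sample 6, 0.0645 in sample 7, 0.109 in sample 8 and 0.0543 in sample 10. These are 1 to 28 fragments, and the ratio of sample 9 to the next neuron was 1401. The 4 Type-1 neurons (0.135 ± 0.133 FPKM, SD, n = 4) overlapped the 4 Unknown neurons other than sample 9 (0.0409 ± 0.0523).

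Slc5a7 reached 28.8 FPKM in sample 9 (3593 fragments, rank 2073) and 1.16 FPKM in sample 6 (207 fragments), a Type-1 neuron of the Dbx1 lineage. The remaining neurons held 4 fragments in sample 5, 1 each in samples 7 and 8, and 0 in samples 1, 2, 3, 4 and 10. Sample 9 was 24.8-fold above sample 6. In sample 6 Chat was at 0 and Slc18a3 had 11 fragments, so the choline transporter was there without the other cholinergic genes at a like level.

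Per length, Slc18a3 stood 246-fold above Chat in sample 9 and 15.4-fold above Slc5a7, and Slc5a7 stood 16-fold above Chat. Chat and Slc18a3 lie on the minus strand of chromosome 14 in 1 locus (GRCm38, GENCODE M21). Chat spans chr14:32408203-32465989, and the single exon of Slc18a3, chr14:32462438-32464850, lies inside intron 1 of the 16-exon transcript Chat-201, 1139 bases from the start of Chat, with 0 exonic bases shared. The deposited length of Chat covers all its annotated exons (4703 bases). Over the 2858 bases of Chat-201 alone the level would be 2.96 FPKM, still far below that of Slc18a3. Fragments of unspliced Chat RNA that fall in intron 1 at Slc18a3 would be counted for Slc18a3, and their part was not tested.

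**Figure D2:**
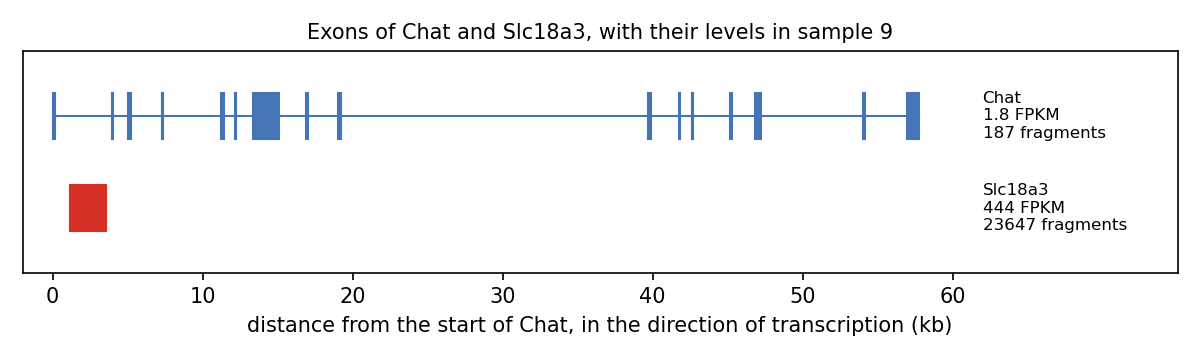
Map of the Chat and Slc18a3 locus, with annotated exons as boxes along the distance from the start of Chat in kilobases, and the FPKM and fragments of each gene in sample 9 written beside it. Slc18a3 lies in the first intron of Chat-201, and its 444 FPKM stand beside 1.8 FPKM for Chat.

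Of the transcription factors, Isl1, which specifies motoneurons and several sensory neurons, reached 38.1 FPKM in sample 9 (3329 fragments, rank 1627). It had 4 fragments in sample 5, 3 each in samples 6 and 8, 1 in sample 7 and 0 in samples 1, 2, 3, 4 and 10. Tbx20, a T-box factor of brainstem motoneurons, reached 4.62 FPKM in sample 9 (1224 fragments, rank 5393), with 2 fragments each in samples 5, 6 and 8 and 0 in the other 6 neurons. Per length Isl1 was 8.24-fold above Tbx20 in sample 9. Isl1 had 99.8% and Tbx20 99.7% of their summed FPKM in this neuron.

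Prph encodes peripherin, an intermediate filament of neurons that project out of the central nervous system, and it had the highest levels of the 10 genes outside sample 9. It reached 719 FPKM in sample 9 (31706 fragments, rank 68). It stood at 24.6 FPKM in sample 10 (1502 fragments) and 6.76 in sample 3 (421 fragments), both Unknown neurons of CD-1 pups. The others were at 0.0234 in sample 1, 0 in sample 2, 0.034 in sample 4, 0.41 in sample 5, 0.191 in sample 6, 0.0974 in sample 7 and 0.339 in sample 8. The Unknown neurons without sample 9 spanned 0 to 24.6 FPKM (7.93 ± 11.6, SD, n = 4) and overlapped the Type-1 neurons (0.183 ± 0.164, n = 4).

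Ret encodes the receptor tyrosine kinase for the GDNF family of trophic factors. It reached 14.6 FPKM in sample 9 (2181 fragments, rank 3476) and 2.13 FPKM in sample 2 (522 fragments), with 1 fragment in sample 5 and 0 in the other 7 neurons. Sample 9 was 6.86-fold above sample 2, the smallest such ratio of the 7 genes whose next highest neuron by FPKM held over 3 fragments, and Ret had the lowest share of its summed FPKM in sample 9, at 87.3%. In sample 2, the neuron of the same type, mouse and age as sample 9, the other 9 genes had 0 fragments.

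The peptide genes, with Prph, were the most abundant of the set. Calca reached 1264 FPKM in sample 9 (46992 fragments), rank 36 of its library. It was at 0.924 FPKM in sample 5, 0.358 in sample 6, 0.509 in sample 7, 0.559 in sample 8 and 0.0389 in sample 10, and at 0 in samples 1 to 4. Sample 5, with 57 fragments, was 1368-fold below sample 9. Counts per gene do not separate the calcitonin from the CGRP transcripts of Calca.

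Calcb, which encodes the second form of CGRP, reached 772 FPKM in sample 9 (21539 fragments, rank 65). The next value was 0.367 FPKM in sample 5, followed by 0.328 in sample 8, 0.276 in sample 6, 0.0778 in sample 10 and 0.0308 in sample 7, and samples 1 to 4 were at 0. Gal, which encodes the peptide galanin, reached 598 FPKM in sample 9 (10403 fragments, rank 77), with 0.485 in sample 5, 0.296 in sample 7, 0.202 in sample 6, 0.191 in sample 8, 0.0416 in sample 10 and 0 in samples 1 to 4. All 3 peptide genes thus had at least 1 fragment in the same 6 neurons, samples 5 to 10. Outside sample 9 these were only 1 to 57 fragments per gene, and none reached 1 FPKM. Together they made 0.358% of library 9 (78934 fragments).

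Calca (chr7:114631478-114636357, minus strand) and Calcb (chr7:114718643-114723365, plus strand) lie 82285 bases apart and are related in sequence, so reads could in principle be shared. The longest run of bases identical between their annotated transcripts was 61, below the read length of 150, and 33 of 1260 words of 31 bases in Calcb (2.62%) were also in Calca. Calca was 1.64-fold above Calcb per length in sample 9.

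The order of the levels in sample 9 was Calca, Calcb, Prph, Gal, Slc18a3, Isl1, Slc5a7, Ret, Tbx20 and Chat. With no second library of this kind, the spread behind that order is unknown. Means over the Unknown neurons rest on the same library: Calca stood at 253 ± 565 FPKM over all 5 (SD, n = 5) and at 0.149 ± 0.274 over the 4 without sample 9, against 0.448 ± 0.383 in the Type-1 neurons (n = 4). Calcb (154 ± 345) and Gal (120 ± 267) had SDs above their means over the 5 Unknown neurons in the same way. The Type-2 neuron had 1 fragment of Prph and 0 of the other 9 genes.

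Outside sample 9, 42 of the 90 pairs of a gene and a neuron had at least 1 fragment, and 4 reached 1 FPKM. That count depends on the unit and the limit: it was 11 with TPM, 7 at 0.5 FPKM and 2 at 5 FPKM. To set these counts in scale, the same ratio to sample 9 was taken for 73 other genes with at least 99% of their summed FPKM and at least 1000 fragments in sample 9, a choice that itself limits how high those genes can be elsewhere. Summed over the 73 genes, the other libraries held between 0.00218% (sample 2) and 0.117% (sample 5) of the count of sample 9, with 0.0537% in sample 6, 0.055% in sample 7 and 0.0428% in sample 8. In sample 5 Calca had 57 fragments where that percentage gives 55.2, Slc18a3 28 where it gives 27.8, and Gal 14 where it gives 12.2. The counts were not always so close: in sample 7 Calcb had 1 fragment where 0.055% gives 11.8.

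The 4 pairs that reached 1 FPKM lay above all 73 genes, but this order follows largely from how those genes were chosen. Ret, Prph and Slc5a7 had 87.3%, 95.7% and 96% of their summed FPKM in sample 9, under the share required of the 73. Nothing is therefore read from the order. Ret in sample 2 was at 23.9% of its count in sample 9, Slc5a7 in sample 6 at 5.76%, Prph in sample 10 at 4.74% and Prph in sample 3 at 1.33%. The pooled percentages of those libraries give 0.0476, 1.93, 2.49 and 2.77 fragments for them, where 522, 207, 1502 and 421 were counted. The choice of the 73 genes keeps those percentages low, so this contrast is a description too. The other 38 pairs were at no more than 0.163% and 57 fragments. Whether fragments of library 9 were read into other libraries was not tested.

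**Figure D3:**
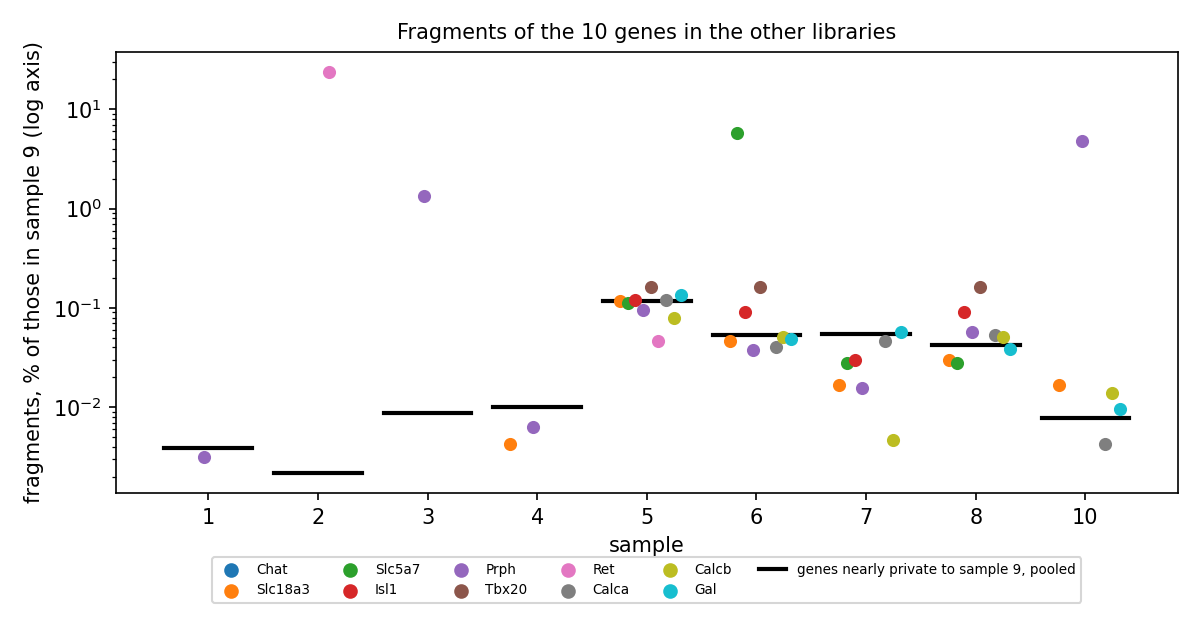
Count of each of the 10 genes in the other neurons as a percent of its count in sample 9 (log axis; counts of 0, as for Chat, are not drawn), with black bars for the pooled percent over 73 further genes nearly private to sample 9. Most points lie at or below 0.163%, and Ret in sample 2, Slc5a7 in sample 6 and Prph in samples 3 and 10 lie between 1.33% and 23.9%.

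The related pathways were read from 54 further genes in 5 lists. Of the 36 with at least 10 fragments in some neuron, 15 were highest in sample 9 (41.7%), against 7.38% of all genes with 10 fragments. Over 50% of summed FPKM lay there for 11 (30.6% against 3.36%), and 25 reached 1 FPKM there (69.4% against 36.9%). These lists were drawn up with the pattern of sample 9 known and are no independent evidence of it.

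Of 8 genes that handle acetylcholine, 4 were highest in sample 9. Ache, the esterase that breaks acetylcholine down, was at 222 FPKM there and between 6.93 and 129 in the other neurons, so it was detected in all 10. Acly, which supplies acetyl-CoA, was at 316 FPKM, with 164 in sample 5, 156 in sample 6 and 128 in sample 7. Slc10a4, a vesicle protein of cholinergic and monoaminergic neurons, was at 316 FPKM, with 9.54 in sample 10 and at most 0.351 elsewhere. Bche, the second cholinesterase, was at 16 FPKM, with 1.98 in sample 1. Ache and Acly were thus shared widely, whereas Slc10a4 and Bche were nearly restricted to sample 9.

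Of 13 motoneuron transcription factors, 8 were at 0 in sample 9, among them Isl2, Mnx1 and Lhx3 of somatic motoneurons. Of these 8, 5 were at 0 in all 10 neurons (Isl2, Mnx1, Tbx2, Tbx3 and Etv4), and Lhx3 stood at 17.5 FPKM in sample 8. Only 12251 of the 55367 genes had a fragment in sample 9, so the count at 0 is a description. Phox2a, a homeodomain factor of branchial and visceral motoneurons, was at 11.6 FPKM in sample 9 and had 0 fragments in each of the other 9. Nkx6-1 was at 15.1 FPKM, with 1.87 in sample 8. Nkx6-2, the factor with the highest mean of the list, was at 41.6 in sample 9 and 90.2 in sample 3.

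Of 9 neurofilament and effector genes, 8 reached 1 FPKM in sample 9 and 5 were highest there. Nefl stood at 1929 FPKM in sample 9, and its next values were 132 in sample 7, 114 in sample 5 and 103 in sample 10. Nefm stood at 1189 with 72.4 in sample 3, and Nefh, the heavy chain, at 166 with 78.6 in sample 3 and 23.3 in sample 10. The 2 neurons other than sample 9 with Prph above 1 FPKM, samples 3 and 10, were also the next highest for Nefh. Chodl, a gene of fast motoneurons, was at 227 FPKM with at most 0.129 elsewhere, and Mmp9, a protease of the same neurons, at 13.9 with at most 0.0179. Ina (213) and Nrg1 (7.7) were higher in another neuron, at 338 in sample 5 and 13.7 in sample 2, and Agrn, which organises the neuromuscular synapse, was at 5.22 with 5.28 in sample 2.

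The partners of Ret did not all follow it. Gfra1, the co-receptor for GDNF itself, was at 0 in sample 9 and at 105 FPKM in sample 1, where Ret had 0 fragments. Gfra2 had 3 fragments in sample 9. Gfra4, the co-receptor with the highest mean of the list, was at 56.1 in sample 9 but between 26.4 and 93.6 in 6 neurons that had at most 1 fragment of Ret. Of the other trophic receptors Ngfr stood at 42.1 FPKM in sample 9, with 5.87 in sample 8, Lifr at 7.82 with 3.24 in sample 10, and Ntrk3 at 4.05 with 2.89 in sample 6. Cntfr (14.8), Ntrk2 (1.54) and Il6st (1.21) were higher in another neuron, at 19.2 in sample 5, 21.3 in sample 7 and 10.7 in sample 6.

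The receptors for the peptides were scarce. Calcrl, the CGRP receptor, Calcr, the calcitonin receptor, and the galanin receptors Galr2 and Galr3 had 0 fragments in all 10 neurons, which allows up to 3 fragments per library. Galr1 reached 0.00914 FPKM at most, in sample 5. Ramp1, the accessory protein that makes Calcrl a CGRP receptor, was at 6.7 FPKM in sample 9 and 128 in sample 3. Ramp3 was at 6.11 in sample 9 and at most 0.023 elsewhere. Crcp, a component of CGRP receptor signalling and of RNA polymerase III, was at 3.83 in sample 9 and up to 122 in sample 10.

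**Figure D4:**
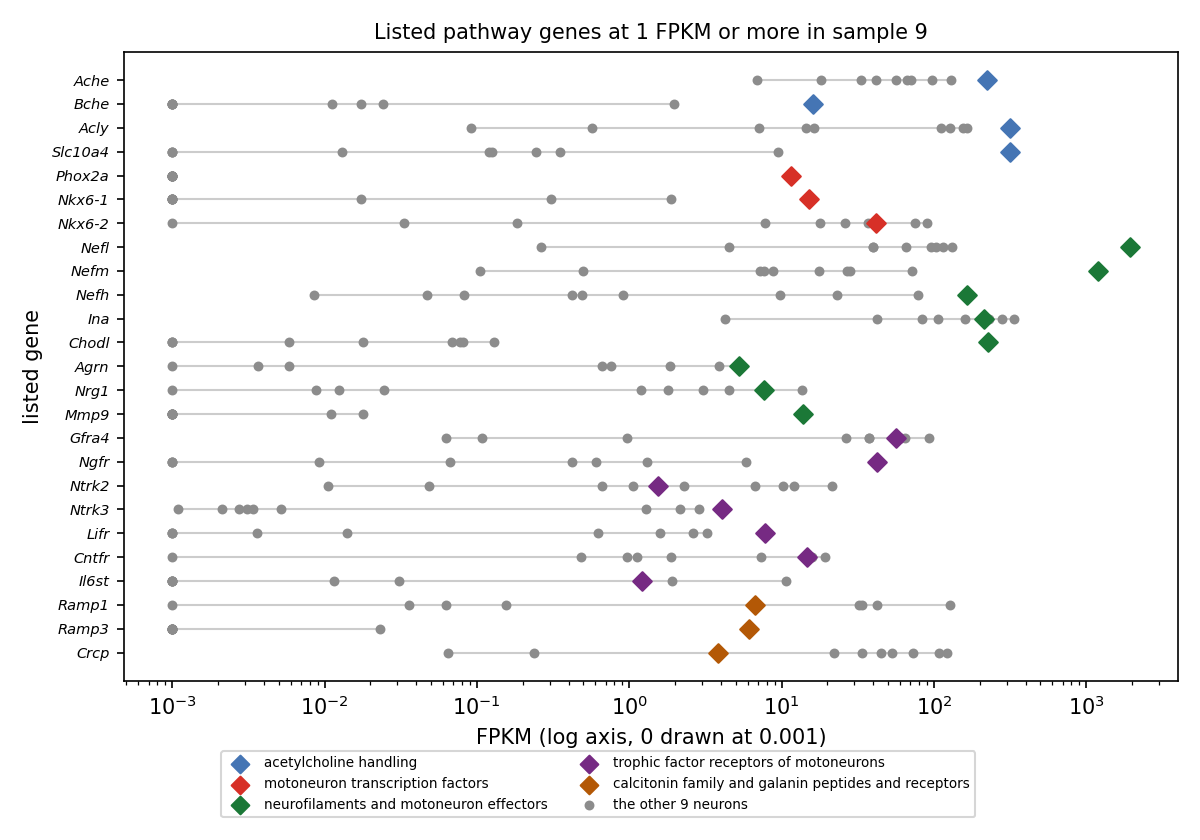
FPKM (log axis) of the 25 listed pathway genes at 1 FPKM or more in sample 9 (diamonds, coloured by list), with the other 9 neurons as grey points and 0 drawn at 0.001. Phox2a, Chodl, Mmp9 and Ramp3 are present in sample 9 with little or nothing elsewhere, whereas Ache, Acly, Gfra4 and Crcp are present in several neurons.

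Markers of other cell types were read in sample 9. The 7 neuronal markers all reached 1 FPKM there. The glutamatergic markers summed to 0.495 FPKM, all of it from Slc17a6, and the 4 GABAergic or glycinergic markers to 0.0419, with Gad2 and Slc32a1 at 0. Of the preBötC markers Tacr1 was at 64 FPKM, its highest value of the 10 neurons, with 33 in sample 8. Reln was at 3.66 FPKM, whereas Sst was at 0, Oprm1 had 1 fragment, and Dbx1 was at 0 in all 10 neurons. Sample 9 thus had 2 of the 6 preBötC markers at 1 FPKM, within the range of the other neurons (0 in samples 4 and 10, 4 in sample 8). It had 0 of the glutamatergic or inhibitory ones.

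Microglial markers, at up to 13573 FPKM summed in sample 4, summed to 0.661 FPKM over 8 genes in sample 9, with 0 of 8 at 1 FPKM. Of 10 astrocyte markers, S100b (158 FPKM) and Apoe (15.5) reached 1 FPKM, and 0 of 8 of the oligodendrocyte lineage did. S100b was at its highest value of the 10 neurons, with 126 in sample 1, whereas Apoe ran from 3.88 to 5045 FPKM in the other neurons. The remaining astrocyte markers were at no more than 0.263 FPKM in sample 9. Calca, Gal, Isl1, Prph and Ret are also used by sensory ganglion neurons, so 11 of their markers were read. Avil (32.3) and Pou4f1 (1.25) reached 1 FPKM in sample 9, whereas 8 of the 11 were at 0, including Scn10a, Scn11a, P2rx3, Trpv1 and Prdm12. Of the 11, 4 were at 0 in all 10 neurons. Only 12251 of the 55367 genes had a fragment in sample 9, so nothing is read from the count at 0. Avil was at no more than 0.0115 and Pou4f1 at 0 in the other neurons. The 11 markers summed to 33.6 FPKM in sample 9 and to between 0 and 30.1 elsewhere, where the highest sum, in sample 6, was Tac1. Without Tac1 the other 10 summed to 33.5 in sample 9, of which Avil made 32.3, and at most 1.36 elsewhere. Tac1 was set aside after its values were seen, so nothing is read from this sum.

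Outside the lists, 3 genes known from sensory or injured peripheral neurons were noticed in sample 9 after their values were seen. Pirt, a membrane protein of sensory neurons, stood at 49.6 FPKM (4595 fragments) with at most 0.039 elsewhere. Trpa1, the irritant-gated channel, stood at 33.2 FPKM (3123 fragments) with at most 0.0265 elsewhere. Sprr1a, a gene induced in axotomised neurons, stood at 31.1 FPKM (554 fragments) with at most 0.0339 elsewhere.

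Several other genes followed sample 9. Symbols that start with Gm or end in Rik were left out here, as were genes under 10 fragments in every neuron. Of the other non-member genes, 166 had at least 99% of their summed FPKM in sample 9. The 10 most abundant were Arhgap36 (466 FPKM), Reg3b (382), Trh (251), Chodl (227), Sstr1 (80.1), Plekhd1 (77.3), Cda (64.6), Ppm1j (58.7), Fam174c (55.7) and Pcsk1 (54.9). A count at this limit was not made for the other neurons. At the limit of over 50%, 3.36% of all genes with 10 fragments lay in sample 9, and 2.8% to 7.41% in each other neuron. Trh encodes thyrotropin-releasing hormone and Pcsk1 a convertase that cuts peptide precursors.

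For the 3 genes at 1 FPKM in more than 1 neuron, likeness was taken as Pearson's r of log2(FPKM + 1) over the 10 neurons, as a description in which sample 9 weighs most. Igsf21 was closest to Ret (r = 0.999, 228 FPKM in sample 9 and 10.8 in sample 2), followed by Serpinb12 (0.956) and Hjv (0.924). 2310074N15Rik (0.943), Spock3 (0.899) and 2600006K01Rik (0.883) were closest to Prph. Gm8355 (0.893), Gm11578 (0.886) and Gm35021 (0.885) were closest to Slc5a7. Gm8355 was nevertheless present in all 10 neurons, at 171 FPKM in sample 9 and 49.1 to 86.8 in the others.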

How the data were processed

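Full-length cDNA of 10 patched neurons was sequenced as paired reads. The authors trimmed reads with bbduk after FastQC 0.11.8, aligned them with STAR 2.7.7a to GRCm38 (versions as in the submitters' processing notes), counted with featureCounts and deposited raw fragment counts per gene without normalization. They also deposited gene lengths and FPKM, which were used as deposited and equalled those recomputed from the counts and lengths within 5.1e-11. How fragments matching several genes or either strand were counted is not given in the sources used here.

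Library totals ran from 21392146 to 36629393 fragments (22072697 in sample 9). A count of 0 allows 3 fragments, and Poisson intervals (95%) and these limits cover counting error only, since reads carry no molecular identifiers. Each neuron's level is printed, or a mean ± SD across neurons. Groups were not tested against each other, and p-values are not given, since the labels name no animal and sample 9 stands alone; Dixon's criterion only marked values apart from their group. Ratios are of FPKM, with no pseudocount. The members, gene lists and markers were chosen with earlier results of these data known. The text names all members, listed pathway genes at 1 FPKM or more in sample 9 and the highest mean of each list. Of genes with 99% of their FPKM in sample 9, it names the 10 most abundant. Symbols that start with Gm or end in Rik were left out of those. For each member at 1 FPKM in at least 2 neurons, 3 genes of highest r are named. These come from genes at 10 FPKM in at least 2 neurons. Other pathway genes and markers named were singled out after their values were seen. Drgx was matched as Prrxl1, and some listed genes are not reported here. Positions are from GENCODE M21, whose exonic lengths equal the deposited lengths of all 10 members; none shares exonic bases with another gene. Alternatives were TPM, TMM scaling (edgeR 4.0.16, R 4.3.3), totals without mitochondrial genes, other limits, a pseudocount of 0.1, low counts set to 0, thinning to the smallest total, and leaving out samples 1 to 4 or each Unknown neuron. Scripts ran under Python 3.11.15 with SciPy 1.17.1, NumPy 2.4.6, Matplotlib 3.10.9 and pandas 2.3.3 and were tested on simulated data.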

Additional observations from a re-analysis of the deposited data

Results flagged for a closer look

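Values were examined in 52 groups of 4 or 5 neurons in which at least 1 neuron reached 1 FPKM, and in 20 of them 1 neuron stood apart from the others of its type by Dixon's criterion on log2(FPKM + 1), which chance meets in about 1 in 20 groups. That rate does not apply here: the genes were listed with the pattern of sample 9 known, and the criterion is met by construction where all other neurons are at 0. The values are a description. Among the Unknown neurons sample 9 stood above the rest for Chat (1.8 FPKM against 0), Slc18a3 (444 against at most 0.109), Slc5a7 (28.8 against 0.00667), Isl1 (38.1 against 0.0285), Tbx20 (4.62 against 0.00628), Calca (1264 against 0.559), Calcb (772 against 0.328) and Gal (598 against 0.191).

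Of the pathway genes, sample 9 stood above the other Unknown neurons for Nefl (1929 FPKM against 39.7 to 103), Chodl (227 against at most 0.0686), Bche (16 against 0.0112), Mmp9 (13.9 against 0), Phox2a (11.6 against 0), Ramp3 (6.11 against 0) and Il6st (1.21 against 0.0116). Il6st was higher in the Type-1 neurons 5 (1.9) and 6 (10.7). Sample 10 stood below them for Nkx6-2, with 0 against 26.3 to 90.2 FPKM.

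Among the Type-1 neurons, sample 6 stood above the others for Slc5a7 (1.16 FPKM against at most 0.0193) and sample 7 for Nrg1 (1.81 against 0.0247). Sample 4, with the highest microglial marker sum of the 10 neurons, stood below them for Acly (14.5 against 128 to 164) and Gfra4 (0.0628 against 37.7 to 64.2). Its neuronal markers were also low, summing to 53.9 FPKM against 2241 to 3378 in samples 5, 6 and 7.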

How the results depend on the processing

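With TPM, TMM, totals without mitochondrial genes, thinning, low counts set to 0 or samples 1 to 4 left out, all 10 genes were highest in sample 9 and had over 50% of their summed FPKM there. At a limit of 95% in place of 50%, 9 remained, all but Ret. The count of gene and neuron pairs at 1 FPKM outside sample 9 was 4, was 3 with TMM, and moved to 11 with TPM, 21 at a limit of 0.1 FPKM, 7 at 0.5, 2 at 5 and 1 at 10. Levels in sample 9 moved beyond their counting interval in 31 of 40 alternatives, on the log2 scale by 0.71 to 1.00 with TPM, 0.09 to 0.15 with TMM, 0.07 to 0.12 without mitochondrial genes and -0.56 to 0.00 with a pseudocount of 0.1. Mean log2(FPKM + 1) over the Unknown neurons ran from 0.30 to 3.51 over the 10 genes, and from 0.00 to 2.01 without sample 9. No paired analysis was possible because the labels give no shared replicate numbers and no test was made. Depth limits values under 3 fragments.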
